A study of Mus musculus with 24 samples.

Results

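The histone genes of the array were taken as all probes whose gene name begins with Hist and a cluster number followed by h, or with H2af, H1f or H3f. This gave 67 probes for 47 genes, out of 41174 probes and 27962 distinct gene names, clone names included, on the array. Of the 67 probes, 41 stand for 31 genes of the Hist clusters, 21 for 11 genes outside the clusters, called replacement variants here, and 5 for 5 genes known from testis or germ line (Hist1h1t, Hist1h2aa, Hist1h2ba, H1foo and H1fnt). The cells were immortalized mouse embryonic fibroblasts that lack Ku70, the Xrcc6 product of DNA end joining, and this deletion is shared by every group, the controls included. Each of the 8 groups had 3 arrays, which the Methods describe as biological replicates.

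In the first set of arrays, untreated cells labeled 4 hr were compared with cells given 20 mM KBrO3, an oxidizing agent, for 1 hr and collected at 4 or 24 hr (KBrO3 alone), and with cells given the same KBrO3 dose together with 150 µM bisphenol A (BPA) before, during and after it and collected at 4 or 24 hr (co-exposure). In the second set, untreated cells with no time in their labels were compared with cells kept in 150 µM BPA and labeled 4 or 24 hr (BPA alone). By the Methods the last groups were in BPA for 5 and 25 hr in all. No untreated group was collected at 24 hr in the first set, so a difference from control at 24 hr also holds any change of untreated cells with time in culture, and treatment and time cannot be told apart there. The second set had 1 untreated group for both times, so at least 1 of its comparisons with control also holds such a change.

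Histones are the proteins around which DNA is wound. Pairs of H2A, H2B, H3 and H4 form the nucleosome core, and H1 binds the DNA between cores. Most histone protein is made in S phase from genes grouped in clusters, which carry no introns and whose mRNAs end in a conserved stem-loop instead of a poly(A) tail. The stem-loop is bound by the protein Slbp, and these mRNAs are made and destroyed in step with DNA synthesis. Genes of the replacement variants lie outside the clusters, are transcribed through the cell cycle and give polyadenylated mRNAs. The primer used to label the RNA is not given in the sources used here, so it is unknown how well transcripts without a poly(A) tail were copied.

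The sequences of the probes bear on how many independent readings there are, since genes of 1 histone class are close to identical. The array annotation gives probe positions in the mouse build mm7. The following 60-base probes read Hist1h2bk at chr13:21402048-21402107, Hist1h2bm at chr13:21088259-21088318 and Hist3h2bb at chr11:59035740-59035799 (minus strand), and capitals mark the run that the first pair share and, for Hist3h2bb, the run shared with Hist1h2bm. The Hist1h2bk and Hist1h2bm probes are identical at 58 of 60 positions.
Hist1h2bk: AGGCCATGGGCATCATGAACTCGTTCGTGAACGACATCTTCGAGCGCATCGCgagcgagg
Hist1h2bm: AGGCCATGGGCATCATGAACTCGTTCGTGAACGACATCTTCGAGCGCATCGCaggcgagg
Hist3h2bb: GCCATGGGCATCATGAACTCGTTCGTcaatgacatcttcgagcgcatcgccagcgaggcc

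Among the H2A probes, that of the testis gene Hist1h2aa (chr13:23300592-23300651) shares 44 bases, in capitals, with a probe of Hist1h2af (chr13:22900228-22900287), and 29 of them with the upstream probe of the replacement variant gene H2afj (chr6:136833216-136833275). These 3 probes are shown because each carries the name of a different kind of gene.
Hist1h2af: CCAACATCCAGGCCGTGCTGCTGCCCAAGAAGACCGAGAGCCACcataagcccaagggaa
Hist1h2aa: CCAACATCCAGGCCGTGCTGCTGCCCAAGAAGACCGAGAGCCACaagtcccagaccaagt
H2afj: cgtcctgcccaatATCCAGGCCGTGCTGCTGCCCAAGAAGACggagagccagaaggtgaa

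In total, 14 probes fall into 5 families linked by shared runs of at least 25 bases, and the annotation lists several RefSeq mRNAs for 15 probes. A signal on these probes is the sum over the gene copies they match, and a change cannot be assigned to 1 copy. The Hist1h3a probe (chr13:23127689-23127748, minus strand) was the single one to contain the stem-loop that ends cluster mRNAs, shown here in capitals within 30 of its bases.
Hist1h3a: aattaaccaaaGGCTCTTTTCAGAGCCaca

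The values are given as normalized levels, that is log2 of the processed fluorescence signal minus the 75th percentile of the same array, so 1 unit is a 2-fold difference in signal and 0 is the level of the 75th percentile. Levels are compared between arrays for 1 probe and not between probes. A probe was called altered, and is said to have risen or fallen, at a Bonferroni-adjusted p below 0.01 over all probes tested together with a change beyond 1.5-fold, which are the thresholds of the study's Methods. A looser rule took a Benjamini-Hochberg p below 0.05 with the 1.5-fold limit, and its calls are named as such. The adjusted p-values printed are Benjamini-Hochberg values from limma over all probes tested, and each ± after a fold change is the standard error from limma with 3 arrays in each group. Of the 67 histone probes, 60 entered the test for set 1 and 64 that for set 2. The others were not well above background on every array of any group there. The H2afz probe A_51_P107901, the Hist1h1d probe A_52_P660466 and the Hist4h4 probe A_51_P148860 were tested in neither set. Those of Hist1h2ac, Hist1h2be and Hist2h2aa2 were tested in the second set alone.

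The first set had 57.7% to 68.1% of spots well above background and the second 76.4% to 79.4%. The median residual SD over probes was 0.107 log2 units for arrays of the first set but 0.340 for those of the second. A change of a given size is therefore called less readily in the second set. Hist1h4d (probe A_51_P482070), for an H4 histone, stood at 1.81, 0.17 and −1.53 in the 3 controls of the second set, and at 2.04, 1.94 and 2.15 in those of the first. The arrays of each set lay on 5 slides. Slide and treatment cannot be told apart for KBrO3 alone at 24 hr or co-exposure at either time against control, because they share no slide. Of 10 fibroblast markers, 9 were well above background on all 24 arrays. The summed level of the 10 was 10.85 to 10.93 in the controls of the first set. For KBrO3 alone it was 10.71 to 10.79 at the early and 9.46 to 9.63 at the late time, and for co-exposure 10.38 to 10.41 and 8.94 to 9.16. In the second set it was 9.45 to 9.66 in the controls, 9.42 to 9.67 at 4 hr of BPA and 9.15 to 9.42 at 24 hr. At 24 hr, 8 of the 10 markers had fallen with KBrO3 alone and 9 with co-exposure. Well above background on every array were 2 of 5 leukocyte markers, not among them Ptprc, which was so on 0 arrays, 1 of 4 germ line markers, and 0 of 4 markers of epithelium, 0 of 3 of endothelium and 0 of 4 of skeletal muscle. The summed level of the leukocyte markers was −2.14 to −1.79 in the controls of the first set, −0.41 to −0.26 with KBrO3 alone and −0.79 to −0.77 with co-exposure at 4 hr, and −1.44 to −1.29 and −1.05 to −0.85 at 24 hr, and 1 of 3 tested rose in each of these comparisons. That of the endothelium markers was −4.97 to −4.46 in the controls, and −3.52 to −3.40 and −3.46 to −3.45 at 4 hr and −3.52 to −3.36 and −4.28 to −4.23 at 24 hr, and the 1 tested rose in all but co-exposure at 24 hr. Of the 2 germ line markers tested, 1 fell in all but KBrO3 alone at 4 hr, and 0 markers of epithelium or skeletal muscle were altered. With BPA alone 0 markers of these lists were altered. Whether any of these markers had a part in the histone values was not tested. In cells pooled for RNA, fewer cells of a kind and less RNA per cell cannot be told apart.

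**Figure D1:**
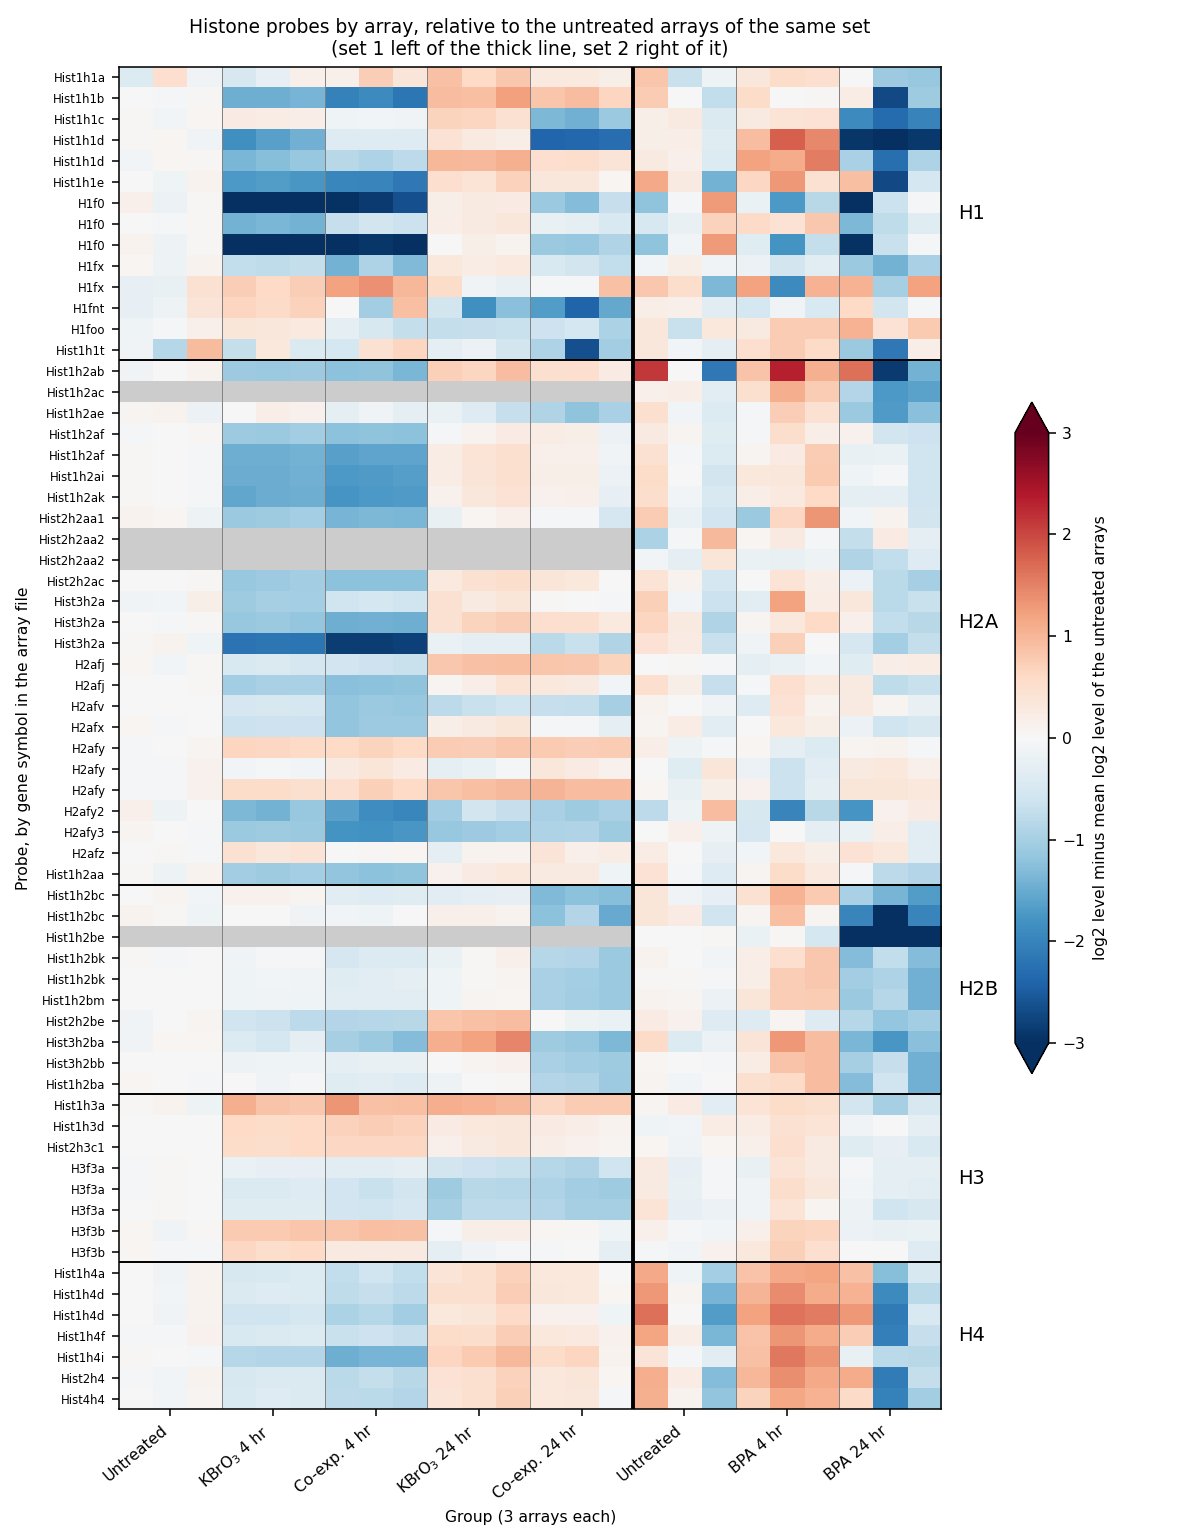
Normalized log2 level of each tested histone probe (rows, grouped by class H1, H2A, H2B, H3 and H4) on each of the 24 arrays (columns, grouped by treatment), minus the mean of the untreated arrays of the same set; blue is below and red above that mean, and grey marks probes not tested in the first set. The H1 and H2A rows are mostly blue with KBrO3 alone and co-exposure at 4 hr, and the H2B rows are blue with co-exposure at 24 hr and BPA alone at 24 hr.

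At 4 hr, 11 of 22 H2A probes and 7 of 14 H1 probes fell with KBrO3 alone, and 16 and 6 fell with co-exposure. Of 9 H2B probes 0 and 1 fell, and of 8 H3 probes 0 fell and 1 and 3 rose. KBrO3 alone altered 20 of the 60 histone probes tested (33.3%), 2 of them higher and 18 lower, where 28.8% of all probes tested were altered, 14.7% higher and 14.1% lower. Of the 60 probes, the looser rule called 4 higher and 25 lower, where 45.5% of all probes were called, 23.0% higher and 22.5% lower. The median over the histone probes was −0.44 log2 units, against 0.06 over all probes. Co-exposure altered 29 of 60 (48.3%), 4 higher and 25 lower, where 32.6% of all probes were altered, 16.4% higher and 16.2% lower. That count was 19 without replicate 1 of the co-exposed arrays, 13 with only the arrays compared and 4 after normexp. With KBrO3 alone the last 2 settings gave 9 and 3. For co-exposure the looser rule called 7 higher and 33 lower, where 54.4% of all probes were called, 29.9% higher and 24.4% lower. Its median over the histone probes was −0.64, against 0.08 over all probes. Both comparisons use the same 3 control arrays, so they are not independent of each other.

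By class, the median log2 fold change with KBrO3 alone at 4 hr was −1.0 for 14 H1 probes, −1.05 for 22 H2A probes, −0.11 for 9 H2B probes, 0.57 for 8 H3 probes and −0.44 for 7 H4 probes. With co-exposure the medians were −0.56, −1.22, −0.36, 0.45 and −0.78 in the same order. The H2B median with KBrO3 alone turned to 0.12 after another background correction (normexp), and the other class medians at 4 hr kept their sign under the scalings tried. The calls did not hold as well. After normexp 1 H2A probe was called lower in each treatment in place of 11 and 16, and 2 and 3 H1 probes in place of 7 and 6, and scaling to the array median left 7 H2A falls with KBrO3 alone. On the slide that held the KBrO3 4 hr arrays with 1 control array, the class medians were −1.27 (H1), −1.08 (H2A), −0.09 (H2B), 0.57 (H3) and −0.56 (H4), with 18 of 22 H2A probes below 0. With slide as a fixed block, which leaves that single control array for the comparison, 0 of the 60 probes were called altered with KBrO3 alone, and with slide as a random block 15 were called altered with co-exposure in place of 29.

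**Figure D2:**
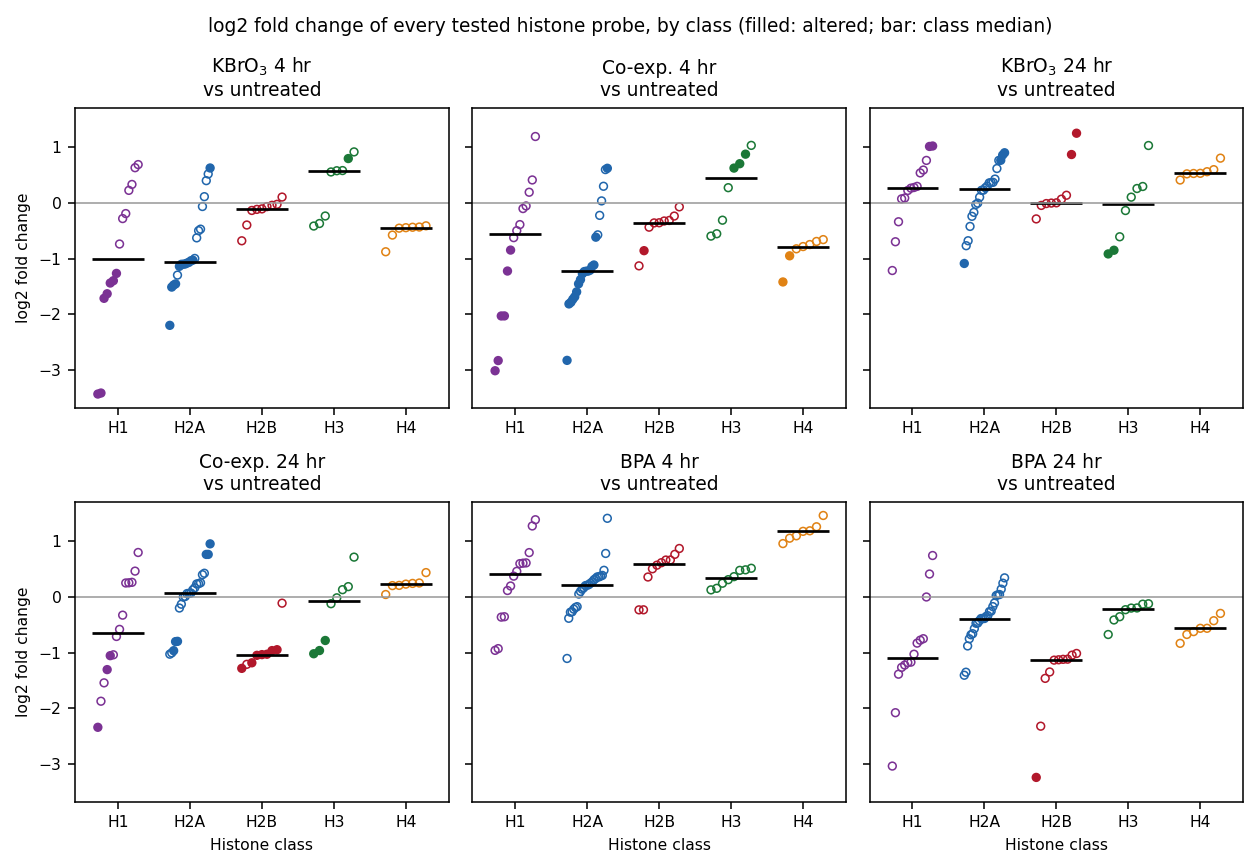
Log2 fold change of each tested histone probe by class (H1, H2A, H2B, H3, H4) in the 6 comparisons of a treatment with the untreated arrays of its set; filled points were altered, open points were not, and the bar is the class median. The H2A median lies at −1.05 and −1.22 in the 4 hr panels of KBrO3 alone and co-exposure, and the H2B median at −1.03 with co-exposure and −1.13 with BPA alone at 24 hr.

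H2A and H2B form the dimers at the outer faces of the nucleosome core. Hist1h2af (probe A_52_P165633) stood at 7.74, 7.78 and 7.81 in the controls, at 6.69, 6.67 and 6.73 with KBrO3 alone at 4 hr and at 6.55, 6.57 and 6.54 with co-exposure at 4 hr. At 24 hr it stood at 7.75, 7.87 and 8.02 with KBrO3 alone and at 8.0, 7.94 and 7.61 with co-exposure. The 4 hr arrays thus lay below every control array, and the 24 hr arrays overlapped the controls. Of all probes tested, 38.7% with KBrO3 alone and 39.1% with co-exposure at 4 hr lay wholly below the controls, so such separation was common. The log2 fold change at 4 hr was −1.08 ± 0.09 with KBrO3 alone (adjusted p = 3.2e-07) and −1.22 ± 0.09 with co-exposure (adjusted p = 8.6e-08). At 24 hr it was 0.10 ± 0.09 and 0.07 ± 0.09, and neither was altered.

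The largest fall among cluster H2A genes of chromosome 13 with KBrO3 alone was that of Hist1h2ak, which stood at 4.50, 4.47 and 4.40 in the controls and at 2.89, 2.96 and 2.99 with KBrO3 alone at 4 hr. With co-exposure it stood at 2.70, 2.72 and 2.76. Its log2 fold changes were −1.51 ± 0.10 (adjusted p = 3.6e-08) and −1.73 ± 0.10 (adjusted p = 8.3e-09). Its probe shares a long run of bases with probes of Hist1h2ai and Hist1h2af, which fell by 1.47 and 1.45 log2 units with KBrO3 alone, so these 3 values are not separate readings.

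Hist2h2ac, in the cluster on chromosome 3, stood at 7.15, 7.14 and 7.21 in the controls, 6.02, 6.08 and 6.11 with KBrO3 alone and 5.94, 5.93 and 5.95 with co-exposure at 4 hr. It fell by 1.10 and 1.23 log2 units. The annotation lists 4 RefSeq mRNAs for this probe and places it near the Hist2h2aa1 probe, so the fall cannot be assigned to Hist2h2ac. Hist1h2ab fell by 1.10 and 1.27. In all, 11 of 22 H2A probes fell with KBrO3 alone and 16 of 22 with co-exposure, while 1 of 22 rose in each case, a probe of H2afy. The Hist1h2aa probe fell by 1.04 and 1.21 log2 units, close to the 1.08 and 1.22 by which the Hist1h2af probe with the 44 shared bases fell.

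For Hist3h2a on chromosome 11, the fall depended on the probe. The probe that lies upstream on the transcript strand (A_52_P184352) stood at 4.12, 4.12 and 4.18 in the controls, 3.00, 3.02 and 2.99 with KBrO3 alone and 2.68, 2.71 and 2.68 with co-exposure at 4 hr. That 567 bases downstream (A_52_P615375) stood at 1.82, 1.88 and 1.64 in the controls, −0.44, −0.40 and −0.41 with KBrO3 alone and −1.07, −1.06 and −1.01 with co-exposure. The log2 fold changes with KBrO3 alone were −1.14 ± 0.07 upstream and −2.20 ± 0.07 downstream, and with co-exposure −1.45 ± 0.07 and −2.83 ± 0.07. The RefSeq model of the gene is 508 bases long in GRCm38, shorter than the distance between the probes. Another probe of this name (A_51_P441377) lies on the opposite strand and fell by 1.03 log2 units with KBrO3 alone.

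Among the linker histones H1, several cluster genes fell at 4 hr. Hist1h1b stood at 0.71, 0.70 and 0.75 in the controls. At 4 hr it stood at −0.74, −0.74 and −0.68 with KBrO3 alone and at −1.30, −1.19 and −1.44 with co-exposure. Its log2 fold changes were −1.44 ± 0.09 (adjusted p = 2.2e-08) and −2.03 ± 0.09 (adjusted p = 7.3e-10). Every 4 hr array lay below every control array, as at 38.7% and 39.1% of all probes. Hist1h1e fell by 1.71 and 2.03 log2 units. Hist1h1c did not fall at 4 hr and had log2 fold changes of 0.23 ± 0.08 and −0.10 ± 0.08.

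H1f0, the replacement linker histone known to accumulate in cells that stop dividing, had 3 probes. The upstream probe (A_52_P442234) stood at 2.74, 2.66 and 2.76 in the controls. At 4 hr it stood at 1.30, 1.36 and 1.32 with KBrO3 alone and at 2.03, 2.18 and 2.09 with co-exposure. A probe 273 bases downstream (A_52_P550932) stood at −0.83, −1.10 and −0.90 in the controls, −4.38, −4.35 and −4.33 with KBrO3 alone and −3.95, −3.87 and −4.05 with co-exposure. In both, all 4 hr arrays lay below all controls, as at 38.7% of all probes with KBrO3 alone and 39.1% with co-exposure. The log2 fold change with KBrO3 alone was −1.40 ± 0.07 upstream (adjusted p = 1.2e-09) and −3.41 ± 0.08 downstream (adjusted p = 4.7e-12), and with co-exposure it was −0.62 ± 0.07 and −3.01 ± 0.08. On the slide shared with 1 control array, the downstream probe differed by −3.46 log2 units with KBrO3 alone. The remaining probe (A_51_P511112) begins 6 bases further on and shares with it the following 28 bases, so it is no separate reading. With KBrO3 alone at 4 hr none of its 3 spots was well above background, and its level was at least 10.8-fold lower than in the controls (adjusted p = 1.1e-09).
H1f0: TGTAATGATGGAGACGTACTTTTTTCTT

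**Figure D3:**
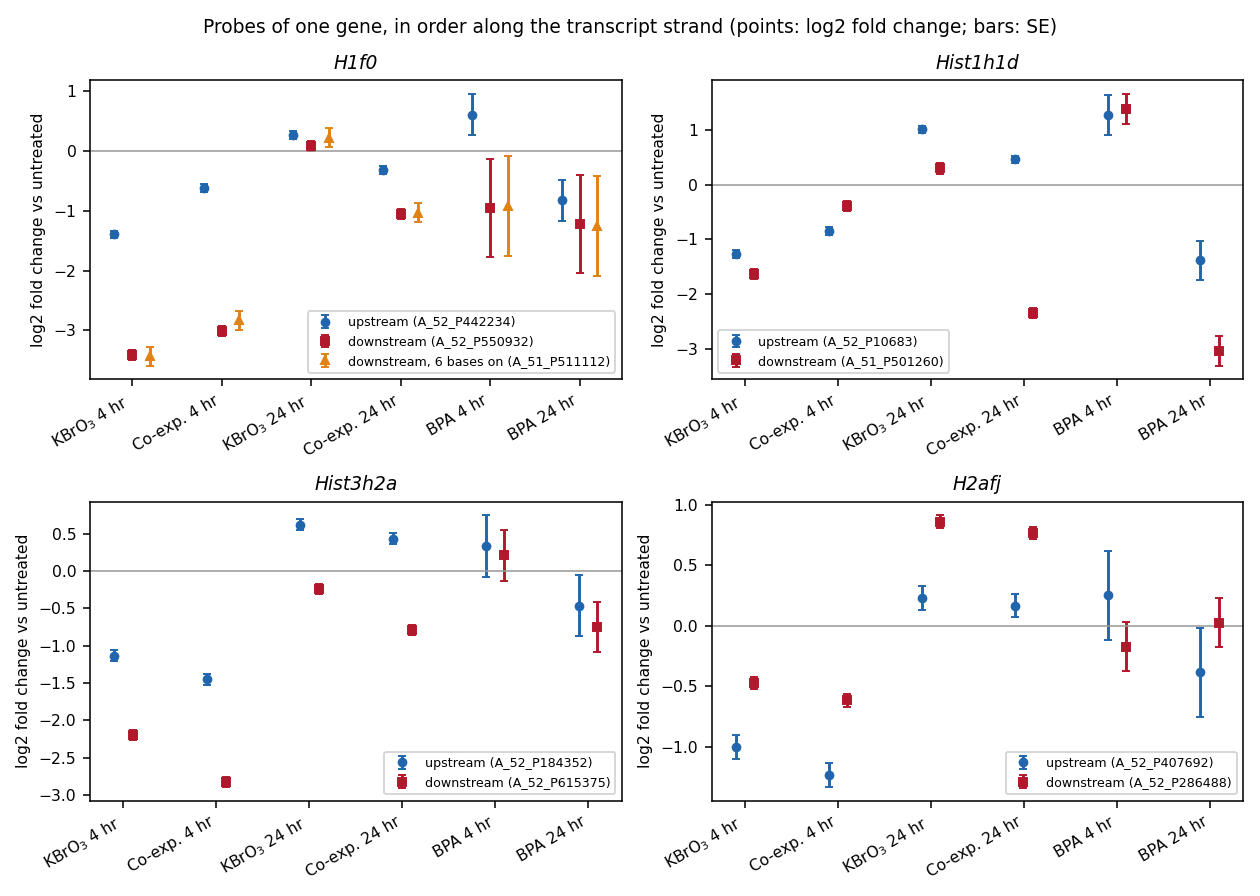
Log2 fold change ± SE (limma, 3 arrays in each group) for probes of H1f0 (3 probes), Hist1h1d, Hist3h2a and H2afj that lie upstream and downstream on the transcript strand, in the comparisons with untreated cells. The downstream H1f0 probe lies at −3.41 and the upstream one at −1.40 with KBrO3 alone at 4 hr, and the downstream Hist1h1d probe lies at −2.34 and the upstream one at 0.47 with co-exposure at 24 hr.

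H3 and H4 form the tetramer at the center of the nucleosome. At 4 hr the medians of their probes had opposite signs, though 3 of 8 H3 probes lay below 0 in each treatment. The classes were not compared in a test. Hist1h3d stood at 4.96, 4.96 and 4.98 in the controls, 5.57, 5.51 and 5.57 with KBrO3 alone and 5.66, 5.70 and 5.66 with co-exposure. It rose by 0.70 ± 0.04 log2 units with co-exposure (adjusted p = 1.3e-08), and its change of 0.58 ± 0.04 with KBrO3 alone lay just under the 1.5-fold limit. Hist2h3c1 rose by 0.63 ± 0.05 with co-exposure. Of the 8 H3 probes, 1 rose with KBrO3 alone and 3 with co-exposure, and 0 in either after normexp or with scaling to the array median. Quantile normalization gave 0 rises and 2 falls with KBrO3 alone, and 1 rise and 2 falls with co-exposure. Hist1h3a, whose probe spans the stem-loop, stood at −5.13, −5.05 and −5.31 in the controls and at −4.07, −4.31 and −4.35 with KBrO3 alone, a difference of 0.92 ± 0.12 log2 units (adjusted p = 1.9e-05) that did not pass the Bonferroni threshold. This probe was well above background on 2 of the 3 control arrays. The 3 probes match different numbers of H3 genes, since the annotation lists 4 RefSeq mRNAs each for the Hist1h3d and Hist2h3c1 probes and 1 for that of Hist1h3a.

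All 7 H4 probes were below 0 at 4 hr, with log2 fold changes down to −0.88 with KBrO3 alone and −1.42 with co-exposure. H4 genes encode 1 and the same protein, and the probes of Hist1h4d, Hist1h4f and Hist2h4 share long runs. Hist1h4i stood at 1.34, 1.32 and 1.24 in the controls, 0.44, 0.42 and 0.41 with KBrO3 alone and −0.17, −0.10 and −0.09 with co-exposure. It fell by 1.42 ± 0.12 log2 units with co-exposure (adjusted p = 2.4e-07), and Hist1h4d (A_51_P482070) by 0.95 ± 0.09. With KBrO3 alone limma called 0 of 7 H4 probes altered, and the looser rule called 1 of 7, Hist1h4i. At an unadjusted p below 0.05 there were 7 of 7, as there were 73.9% of all probes.

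At 24 hr, 14 of 22 H2A probes with KBrO3 alone and 15 of 22 with co-exposure had log2 fold changes above 0 against control, as had 7 of 7 H4 probes in each. Of these H4 probes limma called 0 altered in either, and 7 and 4 had an unadjusted p below 0.05, where 69.0% and 72.1% of all probes did. The downstream Hist3h2a probe was at −0.80 with co-exposure. With co-exposure 7 of 9 H2B and 3 of 14 H1 probes fell, and with KBrO3 alone 0 of 9 and 0 of 14 did. KBrO3 alone altered 10 of 60 histone probes (16.7%), 7 higher and 3 lower, where 16.8% of all probes were altered, 7.44% higher and 9.41% lower. By the looser rule 14 were higher and 8 lower, where 33.2% of all probes were called, 14.1% higher and 19.1% lower. The Bonferroni share among histone probes was thus close to that of all probes. With slide as a random block there were 2 higher and 3 lower by the Bonferroni rule. The median was 0.26 over the histone probes and −0.02 over all probes. Co-exposure altered 19 of 60 (31.7%), 3 higher and 16 lower, where 20.8% of all probes were altered, 9.77% higher and 11.1% lower. The excess of falls ended with scaling to the array median, at 3 higher and 3 lower, and after normexp, at 1 higher and 0 lower. Of the 60 probes, the looser rule called 5 higher and 23 lower, where 39.4% of all probes were called, 15.9% higher and 23.5% lower. Here the medians were −0.01 over the histone probes and −0.07 over all probes, and 30 histone probes were above and 30 below 0.

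From 4 to 24 hr after KBrO3 alone, 27 of 60 histone probes rose and 0 fell (45.0% altered), where 26.7% of all probes were altered, 12.2% higher and 14.6% lower. The KBrO3 4 and 24 hr arrays shared no slide, so slide and time cannot be told apart there. At an unadjusted p below 0.05, 51 of the 60 differed, as did 76.8% of all probes, and by the looser rule 32 were higher and 4 lower, where 47.8% of all probes were called, 19.9% higher and 27.9% lower. After co-exposure, 24 rose and 7 fell (51.7%), where 30.1% of all probes were altered, 14.2% higher and 15.9% lower. With the looser rule 29 were higher and 13 lower, where 55.6% of all probes were called, 20.6% higher and 35% lower. Of the 24, 13 were H2A probes, and of the 7, 4 were H2B probes. The 7 H4 probes had a median rise of 0.98 log2 units after KBrO3 alone and 1.00 after co-exposure, and 5 of them rose in each. In a fit with slide as a fixed block, which links the co-exposed arrays only through KBrO3 24 hr arrays on their slides, the H2A and H4 medians over time were 1.11 and 0.95 with co-exposure, with 1 of the 60 probes altered, lower. Scaling to the array median gave 27 higher and 1 lower after co-exposure, with 0 of the H2B falls, and normexp gave 8 higher and 0 lower. With only the arrays compared, 4 probes were altered over time in each treatment, and normexp gave 13 higher and 0 lower after KBrO3 alone.

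With KBrO3 alone at 24 hr, Hist1h1b stood at 1.66, 1.63 and 1.94, above the controls at 0.71, 0.70 and 0.75, and rose by 1.02 ± 0.09 log2 units (adjusted p = 9.6e-07). The upstream Hist1h1d probe (A_52_P10683) rose by 1.01 ± 0.07. Hist3h2ba, a cluster H2B gene on chromosome 11, stood at −3.69, −3.53 and −3.53 in the controls and −2.48, −2.38 and −2.13 with KBrO3 alone at 24 hr, and rose by 1.25 ± 0.11 log2 units (adjusted p = 9.6e-07). This call was sensitive to the background correction, and with normexp the value was −0.34. Hist2h2be rose by 0.87 ± 0.07. With slide as a random block these 4 rises, at 0.96, 0.98, 1.18 and 0.82 in the order given, were no longer called.

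With co-exposure at 24 hr the median over 9 H2B probes was −1.03 against control, with 7 of 9 altered, all lower, and all 9 below 0. With KBrO3 alone at 24 hr the H2B median was 0.00, with 2 of 9 higher and 0 lower by either rule. Hist1h2bc (probe A_51_P462311) stood at 2.94, 3.01 and 2.85 in the controls. At 24 hr it stood at 2.59, 2.64 and 2.70 with KBrO3 alone and at 1.61, 1.70 and 1.65 with co-exposure. It fell by 1.28 ± 0.05 log2 units with co-exposure (adjusted p = 2.1e-10).

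The Hist1h2bk probe shown above stood at 2.98, 2.98 and 2.95 in the controls, 2.84, 3.01 and 3.05 with KBrO3 alone and 2.00, 1.94 and 1.87 with co-exposure at 24 hr. It fell by 1.03 ± 0.05 log2 units (adjusted p = 4.8e-09), Hist1h2bm by 1.05 ± 0.05 and Hist3h2bb, which RefSeq now lists as a pseudogene, by 1.03 ± 0.04, and these 3 probes share sequence. Of the probes outside that family, Hist1h2ba fell by 0.96 ± 0.06, a second Hist1h2bk probe by 0.95, and Hist3h2ba by 1.18 ± 0.11. Families were set by unbroken shared runs only. The Hist1h2ba probe shares a run of 14 bases with the second Hist1h2bk probe, for which the annotation lists 4 RefSeq mRNAs. Its later bases match most of the start of the Hist1h2bk probe shown above, with mismatches in between. Whether Hist1h2ba and the second Hist1h2bk probe are readings separate from the family was not tested. Hist2h2be, at −1.69, −1.86 and −1.91 with co-exposure and −1.81, −1.70 and −1.62 in the controls, overlapped the controls and was not altered.

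Set against KBrO3 alone at 24 hr, co-exposure altered 12 of 60 histone probes (20.0%), all lower, where 5.80% of all probes were altered, 2.75% higher and 3.05% lower. By the looser rule 16 were lower and 0 higher, where 13.6% of all probes were called, 5.35% higher and 8.23% lower. All 9 H2B probes were among the 12, with a median of −1.03 and a range of −2.43 to −0.92. The others were the downstream Hist1h1d probe, Hist1h1c and the downstream H1f0 probe A_52_P550932. On the slide that held 2 arrays of each group, 9 of 9 H2B probes were again below 0, with a median of −1.06. The direction of the H2B median was the same under the other scalings tried, from −1.11 to −0.86 against KBrO3 alone and from −0.99 to −0.72 against control. The number of H2B probes called was not. With scaling to the array median, 2 of 9 were altered against KBrO3 alone and 1 of 9 against control, and after normexp 0 in both. With slide as a fixed block, 0 of 9 were altered against KBrO3 alone, with a median of −1.06. With only the arrays compared, 1 of all 60 histone probes was altered against KBrO3 alone and 1 against control.

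**Figure D4:**
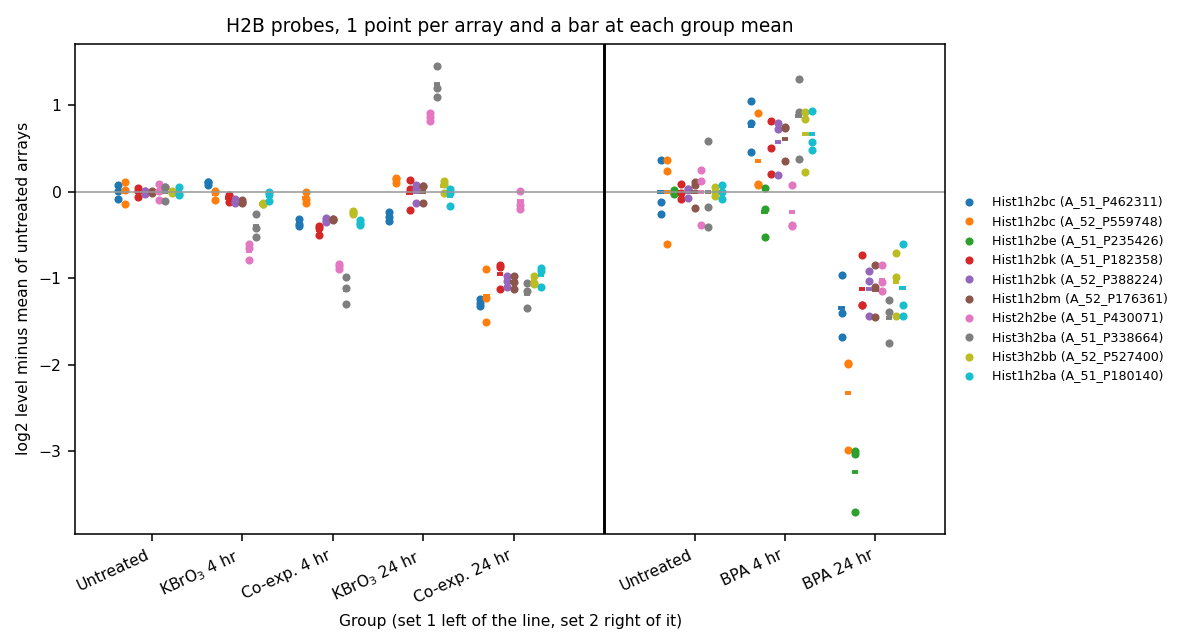
Normalized log2 level of the 10 H2B probes on each array, by group, minus the mean of the untreated arrays of the same set. Each point is 1 array, and Hist1h2be was not tested in the first set. With co-exposure at 24 hr and BPA alone at 24 hr, most probes lie about 1 unit below the untreated arrays of their set. The KBrO3 24 hr arrays of Hist1h2bk lie beside the controls. Before the subtraction their levels were 2.84 to 3.05, and those of the controls 2.95 to 2.98.

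Hist3h2ba was the H2B gene with the largest difference between the treatments. It stood at −2.48, −2.38 and −2.13 with KBrO3 alone and −4.64, −4.73 and −4.92 with co-exposure at 24 hr, a log2 difference of −2.43 ± 0.11 (adjusted p = 1.1e-08), and −2.43 on the shared slide as well. Hist1h1c stood at 2.06, 1.95 and 2.09 in the controls, 2.70, 2.69 and 2.49 with KBrO3 alone and 0.68, 0.60 and 0.92 with co-exposure at 24 hr. It fell by 1.30 ± 0.08 against control (adjusted p = 2.0e-08) and by 1.89 ± 0.08 against KBrO3 alone (adjusted p = 4.9e-09). All 3 co-exposed arrays were below all others of the set.

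The downstream Hist1h1d probe (A_51_P501260) stood at −2.09, −2.05 and −2.21 in the controls. At 4 hr it stood at −3.96, −3.74 and −3.55 with KBrO3 alone and at −2.50, −2.51 and −2.50 with co-exposure. At 24 hr it stood at −1.67, −1.86 and −1.92 with KBrO3 alone and −4.49, −4.47 and −4.40 with co-exposure. Co-exposure was thus above KBrO3 alone at 4 hr, by 1.24 ± 0.09 log2 units, and below it at 24 hr, by 2.64 ± 0.09 (adjusted p = 8.1e-07 and 1.4e-09). The groups shared no slide at 4 hr, and that call was lost with slide as a random block, at 1.12, and after normexp, at 0.72. The upstream probe differed by 0.42 ± 0.07 and −0.55 ± 0.07, which did not pass the threshold. The probes lie 1751 bases apart in mm7, more than the 776 bases of the RefSeq gene model, so both cannot lie within that model.

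At 4 hr, co-exposure differed from KBrO3 alone at 3 of 60 histone probes (5.0%), where 4.99% of all probes were altered, 2.5% higher and 2.49% lower, so the share was close to that of all probes. Of the 60 probes, the looser rule called 4 higher and 6 lower, where 20.1% of all probes were called, 11.9% higher and 8.21% lower. The 3 were the downstream Hist1h1d probe and the upstream H1f0 probe, both higher, and H2afy3, lower by 0.68 ± 0.05. The change of this difference from 4 to 24 hr was altered at 9 of 60 histone probes (15%), 1 higher and 8 lower, where 3.84% of all probes were altered, 2.14% higher and 1.70% lower. With the looser rule 3 were higher and 15 lower, where 27.3% of all probes were called, 11% higher and 16.3% lower. Of the 8, 4 were H1 and 4 H2B probes.

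With BPA alone at 24 hr all 10 H2B probes lay below control, within the limited resolution of the second set. The controls of this set have no time in their labels, so BPA and time in culture cannot be told apart here. At the Bonferroni rule 1 of 64 histone probes (1.56%) was altered, where 0.0189% of all probes were altered, 0.00314% higher and 0.0157% lower. By the looser rule 13 of 64 were lower and 0 higher, where 3.41% of all probes were called, 1.39% higher and 2.02% lower. At an unadjusted p below 0.05, 20 of the 64 differed, as did 18.3% of all probes. Of the 13, 8 were among the 10 H2B probes, 3 among 14 H1 probes and 2 among 25 H2A probes. All 39 cluster probes tested were below 0 over the 3 arrays of each group, with a median of −0.75, while 13 of 20 probes of replacement variants were, with a median of −0.20. This did not hold within every slide. On 1 of the 2 slides with an array of each group, 6 of 7 H4 probes were above 0, with a median of 0.90, and the H3 median was 0.03. The other had H4 and H3 medians of −0.51 and −0.23, and with slide as a fixed block the H4 median was 0.06.

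Hist1h2be, the probe altered by the Bonferroni rule, stood at −6.05, −6.03 and −6.00 in the controls of the second set, −6.23, −5.99 and −6.55 with BPA at 4 hr and −9.02, −9.72 and −9.06 with BPA at 24 hr. It was not well above background on any BPA 24 hr array, and its level was at least 2.84-fold lower than in the controls (adjusted p = 0.0013). The call was lost when any 1 of the 6 arrays was left out, with 0 histone probes altered in each case. In the first set the probe was near background on all arrays and was not tested.

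Hist1h2bc (A_51_P462311) stood at 3.60, 3.12 and 2.98 in the controls, 3.69, 4.28 and 4.03 with BPA at 4 hr and 2.27, 1.84 and 1.56 with BPA at 24 hr, with a log2 fold change at 24 hr of −1.34 ± 0.27 (adjusted p = 0.029). Hist1h2bk (A_52_P388224) stood at 2.81, 2.82 and 2.71 in the controls and 1.75, 1.86 and 1.35 with BPA at 24 hr, a change of −1.13 ± 0.23 (adjusted p = 0.031). The 24 hr arrays lay below the controls in both, as at 10% of all probes. The H2B median was −1.13, and it was −1.12 and −0.81 on the 2 slides that each held 1 array of each group, with 10 of 10 probes below 0 on each. Under the other scalings it ran from −1.23 to −1.01, again with 10 of 10 below 0.

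Hist1h1c stood at 3.33, 3.41 and 2.71 in the controls, 3.43, 3.56 and 3.59 with BPA at 4 hr and 1.23, 0.84 and 1.15 with BPA at 24 hr, a log2 fold change of −2.08 ± 0.23 at 24 hr (adjusted p = 0.0042). The downstream Hist1h1d probe stood at −1.12, −1.10 and −1.64 in the controls, −0.36, 0.50 and 0.16 with BPA at 4 hr and −4.20, −4.60 and −4.17 with BPA at 24 hr. Its log2 fold change was 1.39 ± 0.27 at the early time (adjusted p = 0.024), and at the late time it was −3.03 ± 0.27 (adjusted p = 0.0022). These probes were thus low in both groups held in BPA to 24 hr, each measured against its own set. Neither set had an untreated group labeled 24 hr. The upstream Hist1h1d probe (A_52_P10683) had log2 fold changes of 0.47 ± 0.07 with co-exposure and −1.39 ± 0.36 with BPA alone at 24 hr, neither called by either rule. The difference between the effects in the 2 sets was not tested.

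With BPA alone at 4 hr, 0 of 64 histone probes were altered by the Bonferroni rule in limma, where 0.0660% of all probes were, 0.0629% higher and 0.00314% lower. By the looser rule 2 were higher and 0 lower, the downstream Hist1h1d probe and Hist1h4i (1.26 ± 0.28, adjusted p = 0.039), where 4.24% of all probes were called, 2.83% higher and 1.41% lower, and at an unadjusted p below 0.05 there were 12 of 64 (18.8% of all probes). The medians were 0.42 for H1, 0.21 for H2A, 0.59 for H2B, 0.34 for H3 and 1.18 for H4. The H4 value stands beside the wide spread between controls given above. On the slide that held 2 BPA 4 hr arrays and 1 control, the H4 median was −0.20, with 6 of 7 probes below 0, and the H2A median was −0.23, while the H2B median was 0.34.

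Among the replacement variants, H3f3a and H3f3b encode the same H3.3 protein, which is deposited outside S phase. H3f3b (A_51_P164667) stood at 6.85, 6.68 and 6.80 in the controls, 7.55, 7.55 and 7.62 with KBrO3 alone and 7.62, 7.68 and 7.66 with co-exposure at 4 hr. It rose by 0.80 ± 0.07 (adjusted p = 5.8e-07) and 0.88 ± 0.07 log2 units (adjusted p = 2.1e-07), and at 24 hr it overlapped the controls. The call with KBrO3 alone was lost when any 1 of the 6 arrays was left out, and that with co-exposure when any but 1 control array was, and with slide as a random block, at 0.94. Both calls were lost with scaling to the array median, at 0.80 and 0.73, and after normexp, at 1.10 and 1.19. Quantile normalization gave 0.41, which lost the call, and 0.63. Another H3f3b probe (A_52_P61786) was at 0.58 ± 0.07 and 0.27 ± 0.07 at 4 hr and was not altered. H3f3a (A_52_P76734) stood at 6.12, 6.16 and 6.12 in the controls, 5.15, 5.35 and 5.36 with KBrO3 alone and 5.25, 5.13 and 5.14 with co-exposure at 24 hr. It fell by 0.85 ± 0.06 (adjusted p = 7.3e-08) and 0.96 ± 0.06 (adjusted p = 1.8e-08). With scaling to the array median or after normexp, 0 H3 probes were called lower at 24 hr in either treatment, these and the next H3f3a falls included. Another H3f3a probe (A_52_P1041253) fell by 0.92 and 1.02, and the remaining one (A_51_P456237) by 0.78 with co-exposure, with a change of −0.61 ± 0.07 with KBrO3 alone that missed the threshold.

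MacroH2A variants are H2A proteins with a large extra domain found on silent chromatin. They are encoded by H2afy and H2afy2, while RefSeq lists H2afy3 as a transcribed pseudogene. H2afy (A_52_P141583) stood at 1.73, 1.78 and 1.87 in the controls, 2.45, 2.42 and 2.39 after KBrO3 alone and 2.40, 2.45 and 2.39 after co-exposure at 4 hr. At 24 hr it stood at 2.55, 2.53 and 2.60 after KBrO3 alone and at 2.58, 2.54 and 2.56 after co-exposure. All treated arrays were above all controls. The same held at 40.5% of all probes with KBrO3 alone and 44.5% with co-exposure at 4 hr, and at 34.1% and 32.8% at 24 hr. This H2afy probe rose by 0.63, 0.62, 0.77 and 0.77 log2 units in that order, each ± 0.04. Both 4 hr calls were lost with scaling to the array median, quantile normalization or normexp, and both 24 hr calls after normexp. Of the other H2afy probes, A_52_P402989 rose at 24 hr by 0.90 and 0.96, and A_52_P179238 had changes between −0.17 and 0.30 and was not altered.

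H2afy3 stood at 4.01, 3.92 and 3.87 in the controls, 2.81, 2.87 and 2.81 with KBrO3 alone and 2.14, 2.12 and 2.18 with co-exposure at 4 hr, and at 2.79, 2.84 and 2.90 and 3.00, 3.04 and 2.87 at 24 hr. It fell in all 4 comparisons, by 1.10, 1.78, 1.09 and 0.96 log2 units, each ± 0.05. The 24 hr calls were lost with scaling to the array median, at −0.94 and −0.65, and the calls at both times after normexp. H2afy2 fell by 1.81 ± 0.13 with co-exposure at 4 hr, and its value of −1.30 ± 0.13 with KBrO3 alone at 4 hr had an adjusted p of 1.9e-06.

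H2afx encodes H2AX, the H2A variant that is phosphorylated beside DNA breaks. It stood at 4.77, 4.65 and 4.72 in the controls, 4.08, 4.09 and 4.10 with KBrO3 alone and 3.54, 3.64 and 3.62 with co-exposure at 4 hr. It fell by 1.11 ± 0.07 with co-exposure (adjusted p = 1.0e-08). Its change of −0.63 ± 0.07 with KBrO3 alone did not pass the Bonferroni threshold, and at 24 hr the changes were 0.27 ± 0.07 and −0.13 ± 0.07. Of the H2A.Z genes, whose products mark promoters, H2afv fell with co-exposure by 1.14 ± 0.07 at 4 hr and 0.80 ± 0.07 at 24 hr, with changes of −0.50 ± 0.07 and −0.68 ± 0.07 with KBrO3 alone. H2afz (A_52_P468268) was altered in no comparison and ranged from −0.03 to 0.40 against control in the first set.

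H2afj had an upstream probe, shown above, that carries sequence of cluster H2A genes, and a probe 1238 bases downstream (A_52_P286488). The upstream probe fell by 1.23 ± 0.10 with co-exposure at 4 hr and was at 0.23 ± 0.10 and 0.17 ± 0.10 at 24 hr. The downstream probe stood at −0.64, −0.77 and −0.66 in the controls, 0.11, 0.20 and 0.20 with KBrO3 alone and 0.13, 0.11 and −0.01 with co-exposure at 24 hr, and rose by 0.86 ± 0.05 and 0.77 ± 0.05. H1fx had probes that disagreed at 4 hr. With co-exposure A_51_P114843 fell by 1.22 ± 0.11, and A_52_P748854, which has no position in the annotation, stood at 1.19 ± 0.28 above the controls (adjusted p = 0.0018). The oocyte gene H1foo and the testis gene H1fnt were altered in no comparison with control.

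**Figure D5:**
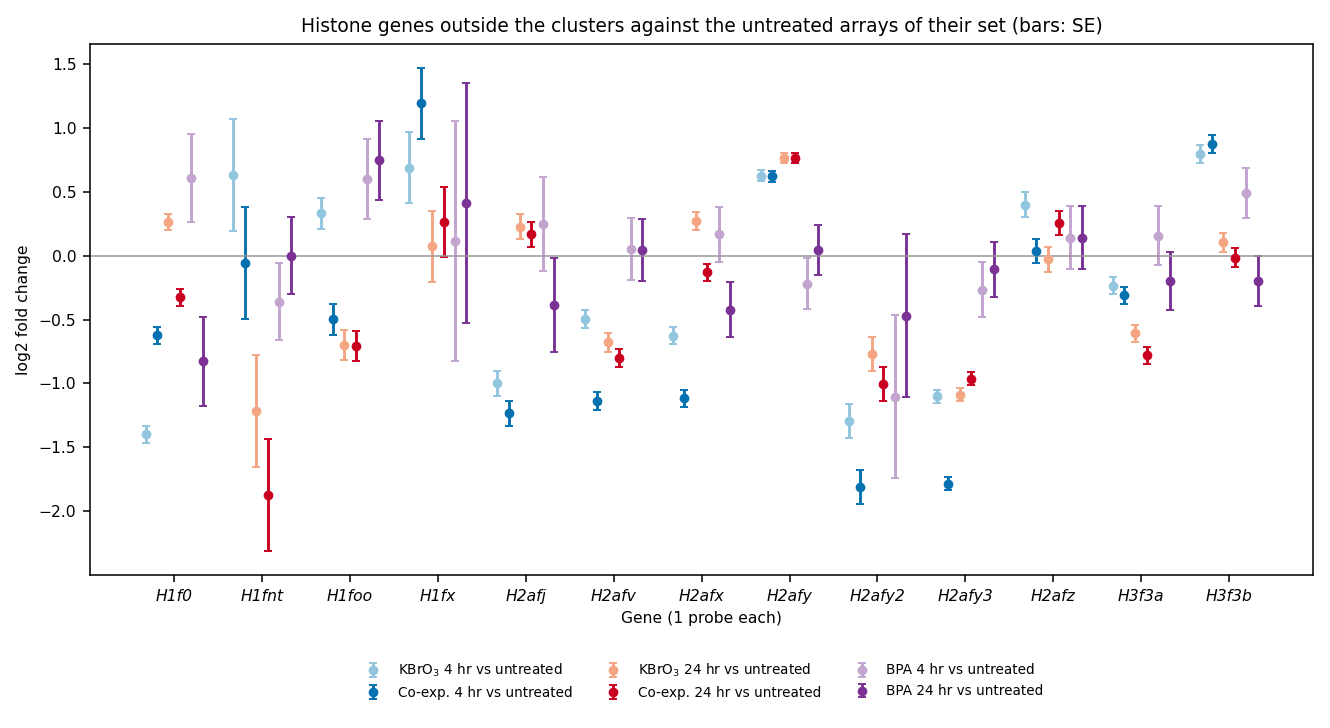
Log2 fold change ± SE (limma, 3 arrays in each group) of the 13 genes outside the Hist clusters, each by its brightest probe, in the 6 comparisons with untreated cells. H2afy lies above 0 and H2afy3 below 0 in the 4 comparisons of the first set, at 0.62 to 0.77 and −1.78 to −0.96.

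With BPA alone, 0 of 20 replacement variant probes were altered by the Bonferroni rule at either time, and 1 of 20, the H1fx probe A_51_P114843 (−1.17 ± 0.20, adjusted p = 0.017), was lower at 24 hr by the looser rule. At an unadjusted p below 0.05 there were 2 of 20 at each time, below the 18.8% of all probes at 4 hr and 18.3% at 24 hr.

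Promoter sequences are shown for H2B genes and for Hist1h1c, which were low with BPA alone at 24 hr and, except Hist1h2be, which was not tested there, with co-exposure at 24 hr. RefSeq windows from 250 bases before to 50 after the start, in GRCm38.p6, were matched for 40 of the 47 genes. The stretches below are the 150 bases up to the start for the H2B genes Hist1h2be (chr13:23585971-23586120, minus strand), Hist1h2bk (chr13:22035671-22035820), Hist1h2bm (chr13:21721894-21722043) and Hist3h2ba (chr11:58948761-58948910) and for the H1 gene Hist1h1c (chr13:23738657-23738806). Capitals mark the CCAAT box, the TATAA of a TATA box and the letters ATTTGCA, the last being the core of the octamer element known from H2B promoters, on either strand. RefSeq gives a second window for Hist1h2be, without that octamer core.
Hist1h2be: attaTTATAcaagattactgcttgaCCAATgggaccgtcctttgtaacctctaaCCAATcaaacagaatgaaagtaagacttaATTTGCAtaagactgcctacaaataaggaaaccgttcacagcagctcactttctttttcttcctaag
Hist1h2bk: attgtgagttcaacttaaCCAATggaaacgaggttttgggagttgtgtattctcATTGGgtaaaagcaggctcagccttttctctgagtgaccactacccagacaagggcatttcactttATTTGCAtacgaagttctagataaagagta
Hist1h2bm: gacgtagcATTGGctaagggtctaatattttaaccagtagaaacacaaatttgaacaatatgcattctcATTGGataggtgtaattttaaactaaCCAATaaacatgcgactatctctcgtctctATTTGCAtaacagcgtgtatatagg
Hist3h2ba: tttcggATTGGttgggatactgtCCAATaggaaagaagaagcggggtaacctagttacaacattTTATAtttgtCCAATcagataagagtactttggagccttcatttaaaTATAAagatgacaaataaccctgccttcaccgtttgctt
Hist1h1c: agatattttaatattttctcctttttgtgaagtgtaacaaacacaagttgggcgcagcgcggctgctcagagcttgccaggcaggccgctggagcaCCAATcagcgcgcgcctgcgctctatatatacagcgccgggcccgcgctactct

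Of the windows of 26 cluster genes, 88.5% held the CCAAT letters, 80.8% the TATAA letters and 30.8% the octamer core, against 37.4%, 24.8% and 4.04% of 32544 distinct windows of the annotation. The octamer core was found in 3 of 4 cluster H2B windows and 5 of 10 cluster H2A windows, and in 0 of 5 H1, 0 of 2 H3 and 0 of 5 H4 windows. Among 9 replacement variants, 6 held the CCAAT letters, 1 the TATAA letters and 1 the octamer core. Hist3h2ba and Hist1h1c, which fell with co-exposure at 24 hr, had no octamer core in their windows. These matches describe the letters in the window only.

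The factors that make and place histones were read from lists written from general knowledge with earlier results of these data known, and all of their genes had a tested probe. Of 16 genes for transcription and 3′ end processing of histone mRNA, 6 rose and 2 fell with KBrO3 alone at 4 hr and the same numbers with co-exposure. For this and the next lists, the shares of all probes that rose and fell were 14.7% and 14.1% with KBrO3 alone and 16.4% and 16.2% with co-exposure at 4 hr, and 7.44% and 9.41%, and 9.77% and 11.1%, at 24 hr. At 24 hr 5 rose and 1 fell with KBrO3 alone, and 6 rose and 0 fell with co-exposure. Slbp, the stem-loop binding protein, rose by 0.89 ± 0.05 log2 units with KBrO3 alone and 0.76 ± 0.05 with co-exposure at 4 hr, and was at −0.04 and 0.02 at 24 hr. Npat, which activates cluster genes in S phase, rose by 0.87 ± 0.08 with KBrO3 alone at 4 hr, with 0.39 ± 0.08 for co-exposure. Casp8ap2, its partner at the histone clusters, rose by 0.80 ± 0.07 with co-exposure at 4 hr, with 0.42 ± 0.07 for KBrO3 alone. The 2 genes that fell included Lsm10, a subunit of the U7 particle that cuts these mRNAs, by 1.78 ± 0.06 and 1.30 ± 0.06. It was named after its values were seen.

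Of 25 chaperone and deposition genes, 5 rose and 3 fell with KBrO3 alone and 6 rose and 3 fell with co-exposure at 4 hr, and 2 and 1 rose and 0 fell at 24 hr. The 4 hr counts, 8 and 9 of 25 in all, lie near the 28.8% and 32.6% of all probes altered. Asf1b, a chaperone of H3 and H4, fell by 0.88 ± 0.07 and 1.04 ± 0.07 at 4 hr and rose by 0.75 ± 0.07 with KBrO3 alone at 24 hr. Nasp, which stores H3, H4 and linker histones, rose by 1.42 ± 0.08 and 1.06 ± 0.08 at 4 hr. Cenpa, the H3 variant of centromeres, fell by 0.85 ± 0.05 with KBrO3 alone and 1.66 ± 0.05 with co-exposure at 4 hr. The subunits of the replication-coupled factor CAF-1, Chaf1a and Chaf1b, were at 0.19 and 0.39 with KBrO3 alone at 4 hr and were not altered against control. The same held for the H3.3 factors, with Hira at 0.65, Daxx at −0.43 and Atrx at −0.52 in that comparison.

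Of 23 genes of the S phase list, which also holds Cdkn1a, an inhibitor of the cell cycle counted here among the rises, 10 rose and 1 fell with KBrO3 alone and 10 rose and 2 fell with co-exposure at 4 hr, and 8 rose and 0 fell with each at 24 hr. The median over the list was 0.41 and 0.29 at 4 hr, while that of the cluster histone probes was −0.45 and −0.78. Tk1, thymidine kinase, fell by 1.62 ± 0.07 and 2.29 ± 0.07, and Cdkn1a, the p21 inhibitor of cyclin-dependent kinases, rose by 3.08 ± 0.07 and 2.92 ± 0.07 at 4 hr. Both were named after their values were seen. With BPA alone, 0 genes of the 3 lists were altered at either time by limma and the Bonferroni rule, and 0 by the looser rule. Whether the changes of the S phase genes had a part in the histone values was not tested.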

How the data were processed

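Cy3-labeled RNA from 24 samples was hybridized to 1-color Agilent Whole Mouse Genome arrays. The intensity values are the processed signals deposited by the authors as output of Feature Extraction, which corrects background and detrends within an array and does not normalize between arrays. The submitters' processing notes name Agilent Feature Extraction 12.0, while the file headers of the first set name an older release. The members and lists were chosen with earlier results of these data known.

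Signals were converted to log2, the 75th percentile of each array was subtracted, outlier spots were set aside and spots of 1 probe averaged. The probes tested were those that at least 1 group had well above background throughout, which left 27310 in set 1 and 31806 in set 2. Each set was fitted alone with limma 3.58.1 (lmFit and eBayes, two-sided) in R 4.3.3. Groups came from the sample labels. The deposited table of the series held the same intensity values (1080432 of 1080432 equal).

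Named were the genes outside the clusters by their brightest probe, up to 6 altered probes with the largest rise and fall in each comparison, and 11 regulators. Further members are named for shared sequence or to fill a class, after their values were seen. Symbols were updated through RefSeq, by accession for 54 probes and by older symbol for 13. Data were simulated with noise drawn independently for each array, so without any effect of slide. At the Bonferroni rule 61% of 2-fold changes were recovered for KBrO3 alone at 4 hr (27277 probes) and 0% for BPA alone at 24 hr (31668 probes). Of 4-fold changes 81% and 3% were recovered. The closing section gives the alternatives, of which the fixed slide block was chosen after the data were seen. The number of arrays limits the precision.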

Additional observations from a re-analysis of the deposited data

Results flagged for a closer look

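The difference between co-exposure and KBrO3 alone changed from 4 to 24 hr at 9 histone probes, by limma's test of that change over 27310 probes (Bonferroni p below 0.01 and beyond 1.5-fold), where 3.84% of all probes passed. For the downstream Hist1h1d probe the change was −3.88 ± 0.13 log2 units (SE, adjusted p = 5.7e-09). It was −1.70 ± 0.16 for Hist3h2ba and −1.57 ± 0.11 for Hist1h1c. The 2 H1f0 probes A_52_P550932 and A_52_P442234 changed by −1.54 and −1.36. Of the related H2B probes, Hist3h2bb changed by −0.99, Hist1h2bm by −0.85 and Hist1h2bk by −0.81. H2afy3 changed the other way, by 0.81. That call was lost with scaling to the array median, normexp, no filter on dim probes, only the arrays compared, the replicate block and slide as a random block. With array median scaling the downstream Hist1h1d probe and Hist1h1c stayed called, with 0 of 9 H2B probes, and after normexp 0 of the 9 changes were. The 3 co-exposure 4 hr arrays and the KBrO3 4 hr arrays lay on different slides, so the slide is confounded with the treatment there and they cannot be told apart.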

How the results depend on the processing

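The counts of altered histone probes depended on the variance estimate and the scaling more than on the direction of the changes. In the order KBrO3 alone at 4 hr, at 24 hr, co-exposure at 4 hr, at 24 hr, BPA alone at 4 hr, at 24 hr, co-exposure against KBrO3 alone at 4 hr, at 24 hr, 24 against 4 hr for KBrO3 alone, for co-exposure, and the change of the difference between them, the counts were 20, 10, 29, 19, 0, 1, 3, 12, 27, 31 and 9. With normexp they were 3, 1, 4, 1, 0, 0, 0, 1, 13, 8 and 0, with a median residual SD of 0.228 in place of 0.107 in the first set. With only the arrays compared they were 9, 0, 13, 1, 0, 0, 0, 1, 4, 4 and 5, with fewer arrays to estimate the spread. At a Benjamini-Hochberg adjusted p below 0.05 they were 29, 22, 40, 28, 2, 13, 10, 16, 36, 42 and 18. Scaling to the array median gave 6 for co-exposure at 24 hr (3 higher and 3 lower, against 3 and 16), 1 and 4 for co-exposure against KBrO3 alone at 4 and 24 hr and 2 for the last, and it moved the median of all probes by −0.14 to 0.46 log2 units. It gave 0 higher and 14 lower for KBrO3 alone at 4 hr, 7 and 0 at 24 hr, and 0 and 22 for co-exposure at 4 hr. Quantile normalization (shift −0.10 to 0.22) gave 0 and 24, and 1 and 32, for the 4 hr comparisons. With slide as a random block there were 5 for KBrO3 alone at 24 hr, 15 and 0 for co-exposure at 4 hr against control and KBrO3 alone, and 5 for the last. With slide as a fixed block, chosen after seeing the data, there were 0 for KBrO3 alone at 4 hr, 0 for BPA alone at 24 hr, 1 for co-exposure against KBrO3 alone at 24 hr and 1 for co-exposure over time. Without a filter there were 0 for BPA alone at 24 hr and 5 for the last, and 0 for BPA alone at 24 hr with error weights or only probes well above background on every array. Replicate numbers did not pair the samples (mean r of residuals −0.029 and 0.0020, with 1 of 15 and 2 of 9 arrays closest to their own number), and with the replicate block there were 19 for co-exposure at 4 hr, 0 for BPA alone at 24 hr, 0 for co-exposure against KBrO3 alone at 4 hr and 4 for the last. Leaving out 1 array gave 16 to 17, 7 to 10, 19 to 22, 13 to 16, 0 to 0, 0 to 0, 1 to 2, 10 to 11, 21 to 25, 24 to 32 and 5 to 7. Of 1462 values of named probes under these settings, 1104 kept direction and call, 357 kept direction and lost the call, and 1 reversed (Hist3h2ba with KBrO3 alone at 24 hr, −0.34 with normexp). The cause was not tested except where given. Signal over background limited the values of Hist1h2be and of the H1f0 probe A_51_P511112 to bounds.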
